A study of Mus musculus with 18 samples.

Results

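The 10 genes described here, Bmp2, Bmp4, Bmp7, Bmpr1a, Bmpr2, Smad1, Smad5, Smad6, Msx1 and Msx2, were chosen by symbol as components of the bone morphogenetic protein (BMP) pathway, and all 10 were among the 20703 genes of the expression table. They were measured by RNA-seq in E14 mouse embryonic stem cells (mESCs) that were WT or homozygous for a CRISPR deletion of exon 5 of Nsd1, a histone H3K36 methyltransferase. There were 3 lines, WT and the clonal knockout (KO) lines KO-1 and KO-2, each a single clone made in E14 cells that already carried a 3×Flag tag on Nsd1, and the sources used here do not state whether the WT libraries came from those tagged cells or from untagged E14 cells. At day 0 the cells were undifferentiated and grown with leukemia inhibitory factor (LIF). The methods of the paper give a feeder layer of mouse embryonic fibroblasts (MEFs) or gelatin for E14 cells in general. Its legend for the RNA-seq profiles has differentiation start with the withdrawal of LIF and MEFs. Whether feeder cells were removed before the day 0 samples were taken is not stated. At day 2 and day 4 the cells had been without LIF and feeders in a monolayer for that number of days. Each line had 2 biological replicates per day, which gave 2 WT and 4 KO libraries per day and 18 in all. The libraries held between 9309874 and 23921193 counts on genes, and the WT libraries of day 2 were the shallowest, with 9309874 and 9356867.

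BMPs are secreted dimers that bind a complex of type I receptors, such as BMPR1A, and type II receptors, such as BMPR2. The type I receptor then phosphorylates SMAD1 and SMAD5, which enter the nucleus with SMAD4 and act on target genes, among them the homeobox genes Msx1 and Msx2, while the inhibitory SMAD6 is itself induced by the pathway and limits it. In mESC culture BMP4 can act together with LIF in self-renewal, and once LIF is withdrawn BMP signals are known for a part in the formation of mesoderm and against neural fate.

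Promoter sequences were available from RefSeq (build GRCm38.p6) for 8 of the 10 genes, in 10 windows of 300 bases that run from 250 before to 50 after a start site. Of the 4 windows with no annotated exon in the 250 bases before the start, those of Bmp4 and Msx1 are shown because both genes were lower in KO at day 4, with each CG dinucleotide in capitals. The Bmp4 stretch is chr14:46390670-46390919 on the minus strand with 11 CG dinucleotides, and the Msx1 stretch is chr5:37824586-37824835 on the minus strand with 20.
Bmp4: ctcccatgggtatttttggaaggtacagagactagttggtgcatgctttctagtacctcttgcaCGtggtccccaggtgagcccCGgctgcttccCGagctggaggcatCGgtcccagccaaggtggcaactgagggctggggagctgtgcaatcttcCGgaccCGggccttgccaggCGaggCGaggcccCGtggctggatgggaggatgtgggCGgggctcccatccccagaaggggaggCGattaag
Msx1: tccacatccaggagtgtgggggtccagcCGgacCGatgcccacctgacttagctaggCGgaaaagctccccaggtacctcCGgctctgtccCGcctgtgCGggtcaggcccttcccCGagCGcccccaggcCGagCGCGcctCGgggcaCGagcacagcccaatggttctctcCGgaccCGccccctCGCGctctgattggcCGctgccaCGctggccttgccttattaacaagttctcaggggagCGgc
Over the whole 300 bases the Bmp4 window held 12 CG dinucleotides and the Msx1 window 29, against a median of 7 over all 32851 windows. All 10 windows were above that median, and Bmp4 had the fewest. Bmpr1a and Bmpr2, which were not called at day 4, held 48 and 23, so such counts were not particular to genes lower in KO.

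The windows were searched on both strands for the GC-rich Smad1/5 element GGCGCC and the palindromic Smad box GTCTAGAC, which do not overlap in any of the stretches below. GGCGCC was in 4 of the 10 windows, of 3 genes, and in 11.9% of all windows, and GTCTAGAC was in the window of Smad6 alone among these genes and in 0.213% of all windows. The 10 windows were 59.3% to 79.3% G or C, against a median of 52.7% over all windows. The share among windows of like content was not computed, so these counts do not show enrichment. Each match is shown in capitals with 11 bases to either side, at chr14:34502728-34502755 on the minus strand for Bmpr1a, chr1:59764163-59764190 on the plus strand for Bmpr2, chr13:56703022-56703049 on the plus strand for Smad5 (shared by 2 of its windows) and chr9:64022045-64022074 on the minus strand for Smad6.
Bmpr1a: gcgcgcgcgccGGCGCCtcttgctcgcc
Bmpr2: tccggcggccgGGCGCCgctgcctgccc
Smad5: cccggcgagcgGGCGCCgagcgcttgtc
Smad6: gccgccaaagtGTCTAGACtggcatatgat
The windows of Bmp4, Msx1, Msx2 and Smad1 held neither string of letters, like most of all windows. Bmp2 and Bmp7 had no window, and a link between these strings and the KO values was not tested.

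Values are given as normalized counts, which are the counts recovered from the deposited values of the variance stabilizing transformation (VST) divided by the size factor of the library. They are not divided by gene length, and they serve to compare one gene between libraries. KO and WT were compared at each day with limma on the VST values, in a single fit of all 18 libraries with 6 groups of genotype and day. A gene was called as a DEG at an adjusted p (Benjamini-Hochberg, over all genes) under 0.01 with an absolute log2 fold change over 0.58. The VST scale compresses differences between weakly expressed genes, so the same contrasts are also given from limma-voom on the recovered counts. For a single gene, the smallest 2-sided p that an exact permutation test of 4 libraries against 2 can give is 0.0667.

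Nsd1 itself was lower in every KO library than in both WT libraries at each day, which is the direction the labels call for. It had 3517 ± 202 normalized counts in WT and 718 ± 85.4 in KO at day 0, and 2268 ± 222 and 818 ± 236 at day 4 (SD, n = 2 for WT and n = 4 for KO). The 4 KO libraries of a day were 2 from each of 2 clones, so a KO SD here and below also holds any difference between clones.

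At day 4, 5 of the 10 genes were called lower in KO and 0 higher by limma on the VST values, when 3.91% of all genes were called lower and 3.67% higher. The 5 were the ligands Bmp2 and Bmp4, the signal transducer Smad1 and the targets Msx1 and Msx2. The fall ranged from 2.13-fold for Smad1 to 123-fold for Bmp2 in normalized counts, while the receptors Bmpr1a and Bmpr2 were not lower. limma-voom called 7 lower, with Bmp7 and Smad6 added, and 0 higher, when it called 13% of all genes lower and 10.9% higher. At an unadjusted p under 0.05, limma on the VST values had 9 of the 10 genes, when 44.2% of all genes were under it. With an adjusted p under 0.05 and no limit on the fold, 7 were lower and 0 higher, against 19.2% and 18% of all genes. The median log2 fold change over the 10 genes was −0.45 on the VST scale, against 0 at 2 decimals over all genes, and −0.96 in limma-voom. In bulk RNA, fewer cells that express a gene and less RNA per cell cannot be told apart, here or at the other days.

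**Figure D1:**
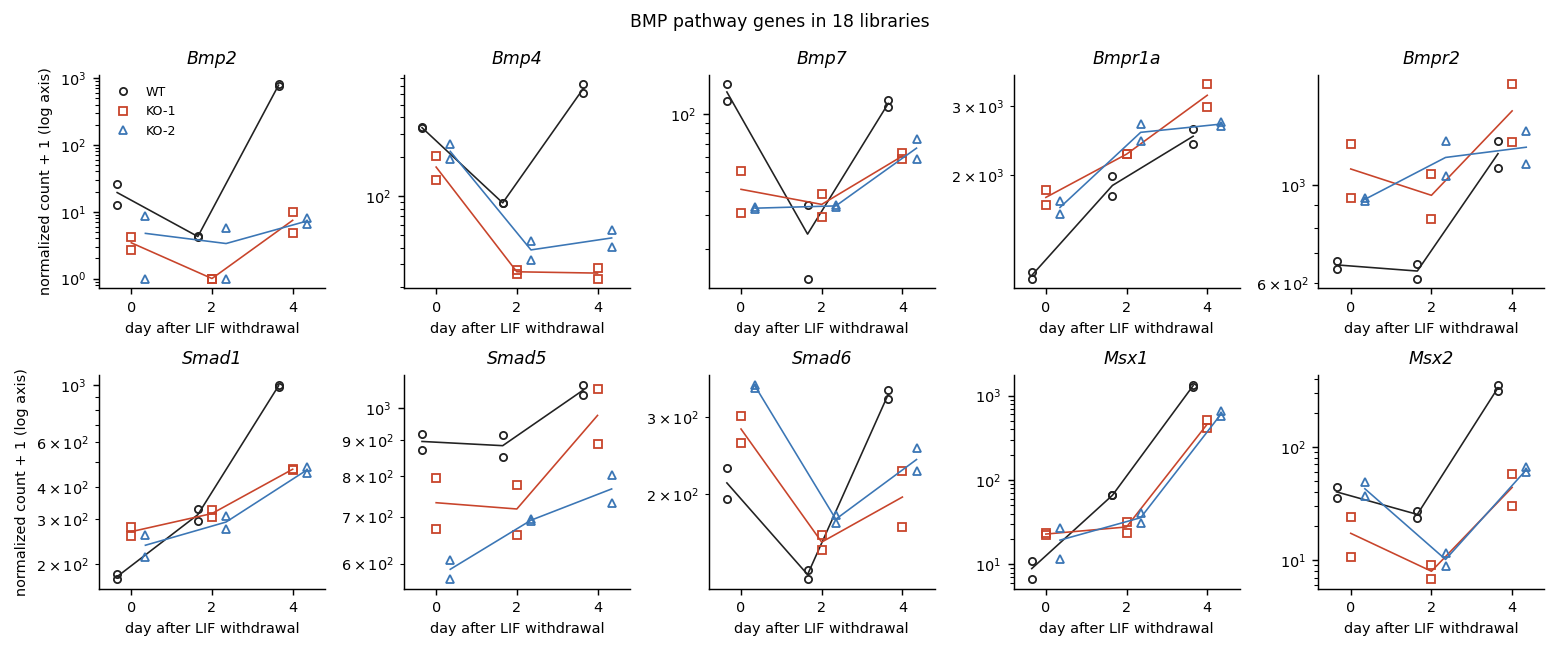
Normalized counts plus 1 of the 10 genes on a log axis against the day after LIF withdrawal, with 1 point per library and a line through the mean of each line of cells (WT, KO-1, KO-2; points are shifted sideways for legibility, and the vertical range differs between panels). At day 4 the WT points of Bmp2, Bmp4, Smad1, Msx1 and Msx2 lie above all 4 KO points.

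Among the ligands, Bmp2 showed the largest difference. In WT it had 25.2 and 11.5 normalized counts at day 0, 3.26 and 3.24 at day 2, and 807 and 755 at day 4. In the KO libraries it had 3.21, 1.64, 0 and 7.48 at day 0, then 0, 0, 4.68 and 0 at day 2, and 9.02, 3.85, 7.0 and 5.47 at day 4, given as KO-1 and then KO-2. WT at day 4 was therefore far above every other group, with WT at day 0 next, and the other 4 groups lay between 0 and 9.02 and overlapped, apart from KO at day 4 and WT at day 2. The counts behind the KO values of day 4 were 6 to 10 per library, against 802 and 1196 in WT, and KO was at 0.811% of the WT mean. The log2 fold change at day 4 was −1.85 on the VST scale (SE 0.06, adjusted p = 1.02e-15, limma) and −6.96 in limma-voom (95% interval −7.86 to −6.06).

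Bmp4 fell and recovered in WT, with 335 and 331 normalized counts at day 0, 88.0 and 87.5 at day 2, and 616 and 717 at day 4. The KO libraries had 201, 131, 248 and 189.8 at day 0, 26.3, 24.4, 31.2 and 44.3 at day 2, and 27.1, 22.4, 39.9 and 53.8 at day 4. They fell like WT from day 0 to day 2 and stayed low, and at each of the 3 days all 4 lay below both WT libraries. The order of the group means was WT at day 4, WT at day 0, KO at day 0, WT at day 2, then KO at day 4 and KO at day 2, whose ranges overlapped. At day 4 the KO mean was 5.37% of the WT mean, with a log2 fold change of −1.44 on the VST scale (SE 0.07, adjusted p = 9.41e-13, limma). At day 0 and day 2 the difference was −0.33 and −0.30 on the VST scale, under the limit of 0.58 (adjusted p = 0.00141 and 0.00187, limma), and −0.85 and −1.51 in limma-voom, where it was called.

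Bmp7, another ligand that can pair with BMP2 or BMP4, behaved differently. WT had 142 and 117 normalized counts at day 0, 32.6 and 13.0 at day 2, and 118 and 107 at day 4. The KO libraries had 49.8, 29.5, 31.1 and 31.8 at day 0, 28.3, 37.6, 32.0 and 32.7 at day 2, and 57.5, 61.5, 73.5 and 57.5 at day 4. KO was below WT without overlap at day 0 and day 4, and the groups overlapped at day 2, when the WT values rested on 20 and 8 counts. The log2 fold changes on the VST scale of days 0, 2 and 4 were −0.42, 0.08 and −0.21, none of them called, and limma-voom called day 0 (−1.97, adjusted p = 1.41e-06) and day 4 (−0.82, adjusted p = 0.000899).

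Neither receptor gene was called between KO and WT on the VST scale at any day. In WT, Bmpr1a had 1082 and 1122 normalized counts at day 0, 1766 and 1987 at day 2, and 2618 and 2402 at day 4. The KO libraries had 1826, 1671, 1708 and 1587 at day 0, 2256, 2260, 2442 and 2696 at day 2, and 3414, 2983, 2673 and 2723 at day 4. Every KO library was above both WT libraries of its day, and the gap in the means narrowed from 1.54-fold to 1.29-fold and 1.17-fold. None of these passed the limit on the VST scale (log2 fold change 0.44, 0.28 and 0.19), and limma-voom called day 0 (0.62, 95% interval 0.39 to 0.85).

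In WT, Bmpr2 stood at 644 and 672 normalized counts at day 0, 662 and 613 at day 2, and 1260 and 1094 at day 4. The KO libraries had 1240, 933, 920.0 and 934 at day 0, 837, 1057, 1050 and 1258 at day 2, and 1692, 1252, 1113 and 1322 at day 4. The groups were apart at day 0 and day 2 and overlapped at day 4, where the log2 fold change was 0.13 on the VST scale with a 95% interval from −0.09 to 0.35. At day 2 the difference was 0.44 on the VST scale (adjusted p = 0.00196, limma) and 0.70 in limma-voom, its only call between KO and WT in either fit.

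Of the transducers, Smad1 was called lower in KO at day 4 and Smad5 was not, and the difference between the 2 genes was not tested. Smad1 rose in WT from 181 and 174 normalized counts at day 0 to 295 and 327 at day 2 and 984 and 1007 at day 4. In KO it went from 255, 278, 213 and 259 at day 0 to 324, 305, 308 and 274 at day 2 and 467, 471, 451 and 479.7 at day 4. So KO was above WT at day 0, overlapped it at day 2 and was below it at day 4, at 46.9% of the WT mean. The log2 fold change of day 4 was −0.64 on the VST scale (SE 0.05, adjusted p = 9.78e-10, limma), close to the limit, and −1.09 in limma-voom.

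Smad5 varied less, and in WT it had 919 and 872 normalized counts at day 0, 852 and 914 at day 2, and 1042 and 1080 at day 4. The KO libraries had 793, 670.4, 570 and 606 at day 0, 776, 658, 694 and 688 at day 2, and 1063, 888, 730.1 and 802 at day 4. They were below WT at day 0 and day 2, and at day 4 the 2 groups overlapped through a KO-1 library. The log2 fold change was between −0.27 and −0.19 on the VST scale over the 3 days and was not called at any, in either fit.

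The inhibitor Smad6 changed sides. WT had 228 and 194 normalized counts at day 0, 127 and 133 at day 2, and 329 and 345 at day 4, and the KO libraries had 260.2, 301, 355 and 349, then 148, 161, 178 and 171, and then 167, 225, 253 and 224. KO was above WT at day 0 and day 2 and below it at day 4, without overlap. The log2 fold changes were 0.23, 0.11 and −0.26 on the VST scale, none called, and limma-voom called day 4 (−0.63, adjusted p = 0.000852).

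Both Msx genes were induced in WT, and less in KO. In WT, Msx1 had 10.1 and 5.75 normalized counts at day 0, 65.2 and 64.8 at day 2, and 1272 and 1353 at day 4. The KO libraries had 22.5, 21.3, 10.6 and 26.2 at day 0, 31.2, 22.4, 29.6 and 40.0 at day 2, and 408, 510.2, 651 and 573 at day 4. KO was above WT at day 0, 2.55-fold in the means, and below it at day 2 and day 4, each without overlap. The day 0 values rested on 4 to 28 counts per library, and that difference was not called in either fit. In KO the rise from day 2 to day 4 was 17.4-fold in the means, close to the 20.2-fold of WT, but from a lower level, and KO at day 4 stood at 40.8% of WT. The log2 fold change of day 4 was −0.81 on the VST scale (SE 0.07, adjusted p = 5.89e-09, limma) and −1.30 in limma-voom.

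Msx2 fell slightly and then rose in WT, with 43.6 and 34.5 normalized counts at day 0, 22.8 and 25.9 at day 2, and 309 and 354 at day 4. In KO it had 9.64, 22.9, 47.9 and 35.5 at day 0, 5.85, 8.13, 7.80 and 10.5 at day 2, and 29.3, 56.4, 65.1 and 58.4 at day 4. The groups overlapped at day 0 only, the KO libraries of day 4 overlapped both groups of day 0, and the WT libraries of day 4 stood above all others. The log2 fold change of day 4 was −0.83 on the VST scale (SE 0.07, adjusted p = 2.05e-09, limma) and −2.66 in limma-voom, and the KO mean was 15.8% of WT.

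**Figure D2:**
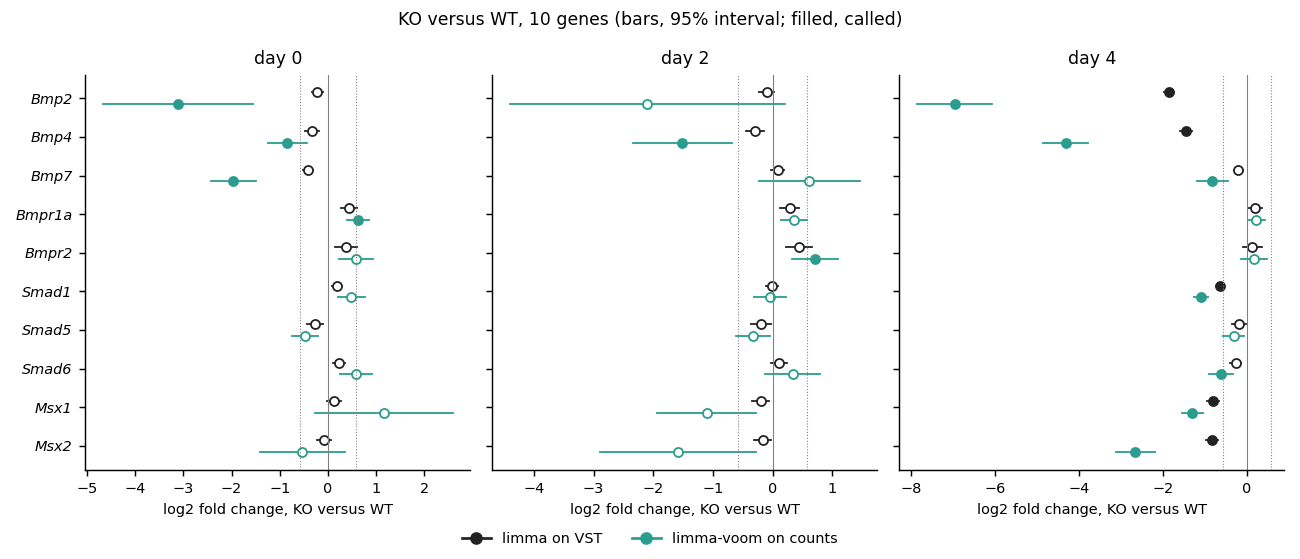
Log2 fold change of KO against WT (horizontal axis, scaled separately for each day) for the 10 genes, as fitted by limma on the VST values (black) and by limma-voom on the recovered counts (green), with the 95% interval as a bar and filled points for calls. Dotted lines mark a log2 fold change of 0.58 in either direction, and the 5 black filled points are all at day 4 and negative.

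At day 0 and day 2, the fit of VST values gave no call for the 10 genes (0 of 10) in either direction, when it called 1.73% of all genes higher and 0.879% lower at day 0, and 4.01% and 2.37% at day 2. At an unadjusted p under 0.05 it had 8 of the 10 at day 0 and 6 at day 2, when 39.4% and 52.3% of all genes were under it. With an adjusted p under 0.05 and no limit on the fold, 4 were lower and 4 higher at day 0, against 14.4% and 15.3% of all genes, and 4 and 2 at day 2, against 24.2% and 21.8%. limma-voom called Bmp2, Bmp4 and Bmp7 lower and Bmpr1a higher at day 0, against 6.86% and 6.43% of all genes, and Bmp4 lower and Bmpr2 higher at day 2, against 13.6% and 10.3%. The fibroblast markers moved with the day 0 contrast: their sum over 10 genes was 3933 ± 164 normalized counts in WT and 6711 ± 526 in KO (SD, n = 2 and n = 4). The KO sums were 6252 and 6263 in KO-1 and 7104 and 7226 in KO-2. Of the 10 markers, 4 were called higher and 1 lower. The most abundant of them, Col1a1, had 1471 and 1493 normalized counts in WT and 2455 to 2994 in KO, Fbln2 and Col1a2 were also higher in every KO library than in WT, and Lum was at 0 in all 6 libraries. The marker called lower was Pdgfrb, named after its values were seen, with 506 and 539 normalized counts in WT and 152 to 206 in KO (log2 fold change −0.67 on the VST scale, adjusted p = 9.23e-08, limma). The paper has the RNA-seq time course start with the withdrawal of LIF and MEFs. It does not state whether feeder cells were removed before the day 0 samples were taken. The part of feeder RNA in the day 0 values of the BMP genes was not tested.

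For 5 of the genes the effect of the KO differed between day 4 and day 0. In a test of the difference itself, day 4 minus day 0, the fit of VST values had calls for 5 of the 10 genes, all in the direction of a lower KO at day 4, when it called 6.93% of all genes in either direction. The difference was −1.63 for Bmp2 (adjusted p = 6.35e-12), −1.12 for Bmp4 (2.97e-08), −0.94 for Msx1 (2.76e-07), −0.82 for Smad1 (1.09e-08) and −0.74 for Msx2 (3.20e-06) by limma with Benjamini-Hochberg adjustment. limma-voom called Bmp2, Bmp4, Smad1, Smad6 and Msx2 in the same direction and Bmp7 in the other (1.15), and Msx1 missed its threshold (−2.47, adjusted p = 0.0116), when it called 14.9% of all genes. For day 2 minus day 0, limma had calls on the VST scale for 0 of the 10, when it called 3.19% of all genes, and limma-voom called Bmp7 (2.58), when it called 7.34%. At an unadjusted p under 0.05 there were 3 of the 10, against 33.5% of all genes, and 3 with an adjusted p under 0.05 and no limit on the fold, against 21.7%.

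Within WT, 5 of the 10 genes were called higher at day 4 than at day 0 and 0 lower, when 7.68% of all genes were called higher and 6.16% lower. They were Msx1 (log2 fold change 2.32 on the VST scale), Bmp2 (1.71), Smad1 (1.23), Msx2 (0.90) and Bmpr1a (0.89). Between day 2 and day 4 the calls in WT were Bmp2 and Msx1 (1.90 each), Bmp4 (1.17), Msx2 (1.00) and Smad1 (0.92), again 5 higher and 0 lower, when 5.69% and 3.07% of all genes were called, and limma-voom added Bmp7, Bmpr2 and Smad6 for 8 higher and 0 lower, when it called 12.2% and 11.9%. Within KO, Msx1 (1.38) and Bmpr1a (0.63) were called higher at day 4 than at day 0 and Bmp4 lower (−0.60), when 3.44% and 3.06% of all genes were called. From day 0 to day 4, limma-voom called 8 of the 10 genes in WT and 5 in KO, against 34.7% and 27.5% of all genes, and an adjusted p under 0.05 with no limit on the fold held for 8 and 9, against 49% and 47.6%. The contrasts within WT and the contrast of KO with WT at day 4 share the WT libraries of day 4, so these lists are not independent of each other.

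In a fit with 9 groups of line and day, 0 of the 10 genes were called between the KO clones at any day, by limma on the VST values or by limma-voom, and few of all genes were. limma on the VST values called 0.029%, 0.0435% and 0.251% of all genes on the 3 days in turn, and limma-voom 0.159%, 0.232% and 2.23%. At an unadjusted p under 0.05, limma on the VST values had 4, 1 and 4 of the 10, against 14.8%, 12.3% and 25.3% of all genes. The lowest adjusted p values were those of Msx1 at day 4, higher in KO-2 by 0.22 on the VST scale (adjusted p = 0.0224, limma), and Smad5 at day 4, lower in KO-2 with a difference of −0.22 (adjusted p = 0.0336, limma). The 95% intervals of the difference between clones at day 4 ran from −0.14 to 0.14 for Bmp2 and from 0.01 to 0.28 for Bmp4.

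Divided by exon length (union of the exons in GENCODE M21), levels can be set side by side between genes. On this scale of mean normalized counts per kb, the order in WT at day 4 was Msx1 (424), Bmpr1a (395), Bmp4 (296.5), Bmp2 (219.7), Smad1 (159), Smad5 (143), Smad6 (105), Msx2 (101), Bmpr2 (65.4) and Bmp7 (28.0). In KO at day 4 it was Bmpr1a (464), Msx1 (173), Smad5 (117), Bmpr2 (74.8), Smad1 (74.6), Smad6 (67.8), Bmp4 (15.9), Msx2 (15.9), Bmp7 (15.6) and Bmp2 (1.78). Bmp4 and Bmp2 had the highest levels of the 3 ligands in WT, and in KO Bmp4 and Bmp7 were level and Bmp2 was far below both.

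The genes whose VST values followed these genes most closely were sought for the 3 with the widest range of group means, over the 18 libraries and 11599 genes with a mean count of at least 50. For Msx1 they were Wls (Pearson r 0.985), Wnt3 (0.980) and Sp5 (0.979), for Bmp2 Pdgfra (0.991), Klhl6 (0.987) and Krt19 (0.986), and for Bmp4 Gng12 (0.972), Dusp1 (0.963) and Ralb (0.963). The libraries share 6 groups, and such values mainly describe which groups are high. Within the 10 genes, Smad1 and Msx1 had an r of 0.94 and Bmp2 and Msx2 of 0.93.

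The rest of the pathway was taken from a list of 70 genes, the 10 included, of which 65 were in the table, 55 of them besides the 10. Of the 55, 6 were called lower in KO and 4 higher at day 4, 0 lower and 4 higher at day 2, and 0 in either direction at day 0, with 30 at an unadjusted p under 0.05, against the 39.4% of all genes given above. With the 10 genes, 11 of the 65 were lower and 4 higher at day 4. The shares of all genes called are also those given above for the same contrasts. Of the 55, limma-voom called 20 lower and 12 higher at day 4, 8 and 6 at day 2, and 7 and 5 at day 0. The median log2 fold change at day 4 on the VST scale was −0.10 over the 55 genes and −0.18 over the 65.

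By role and with the 10 genes included, 2 of 10 ligands, 0 of 10 receptors and coreceptors, 1 of 4 receptor-regulated and common Smads, 3 of 15 secreted antagonists and modulators, and 5 of 17 targets were called lower at day 4 on the VST scale, where 3.91% of all genes were. The ligands, the Smad and 2 of the targets were Bmp2, Bmp4, Smad1, Msx1 and Msx2, and the 6 genes outside the 10 were antagonists and modulators (3) and targets (3). limma-voom, with 13% of all genes lower and 10.9% higher, called 7 ligands lower and 1 higher, 2 receptors and coreceptors lower and 1 higher, 1 Smad lower, 7 antagonists and modulators lower and 3 higher, 9 targets lower and 4 higher, and 1 intracellular inhibitor lower and 3 higher. The 3 antagonists called lower on the VST scale were Fst, Nog and Bmper. Nog encodes Noggin, which binds BMPs and keeps them from their receptors, and it had 402 and 482 normalized counts in WT and 11.3 to 23.8 in KO (log2 fold change −1.28 on the VST scale, adjusted p = 2.84e-12, limma). Fst, whose product follistatin binds activins and some BMPs, had 3585 and 3626 in WT and 582 to 1005 in KO (−1.68), and Bmper, which encodes a BMP-binding protein, had 259 and 271 in WT and 0 to 3.85 in KO (−1.16).

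The 4 genes called higher at day 4 were 2 of 9 intracellular inhibitors, 1 secreted modulator and 1 target. Smad7, an inhibitory Smad of both the BMP and the TGF-β branch, had 507 and 532 normalized counts in WT and 1506 to 1804 in KO (log2 fold change 1.07 on the VST scale, adjusted p = 6.39e-10, limma), and Ski, a corepressor that binds Smads, was 1.63-fold higher in the means (0.58, just past the limit). Fstl1, a follistatin-like secreted protein, was 1.94-fold higher at day 4 (0.76) and 2.50-fold at day 2 (0.96). The other calls of day 2 were Tfap2c, a transcription factor also listed with the trophoblast markers (9.79-fold, 1.35), Twsg1, a modulator of BMP availability (2.53-fold, 0.93), and the type II receptor gene Acvr2b (2.10-fold, 0.69).

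Among the targets, Cdx2 at day 4 had 1084 and 1113 normalized counts in WT and 139 to 277 in KO (log2 fold change −1.27 on the VST scale), and Hand1 had 262 and 266 in WT and 11.5 to 36.4 in KO (−0.88). Both encode transcription factors and are also in the trophoblast list below. Ets2 (−0.70) was called lower and Tfap2c (0.77) higher, and both are named here after their values were seen. The Id genes, widely used as readouts of BMP signalling and also picked after their values were seen, were not called. Id1 at day 4 had 1337 and 1394 normalized counts in WT and 611 to 1317 in KO (−0.37, adjusted p = 0.0356, limma), Id2 had 489 and 554 in WT and 241 to 512 in KO (−0.26), and Id3 had 551 and 653 in WT and 461 to 1100 in KO (0.22). So Id1 was below WT in all 4 KO libraries, and the groups overlapped for Id2 and Id3.

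**Figure D3:**
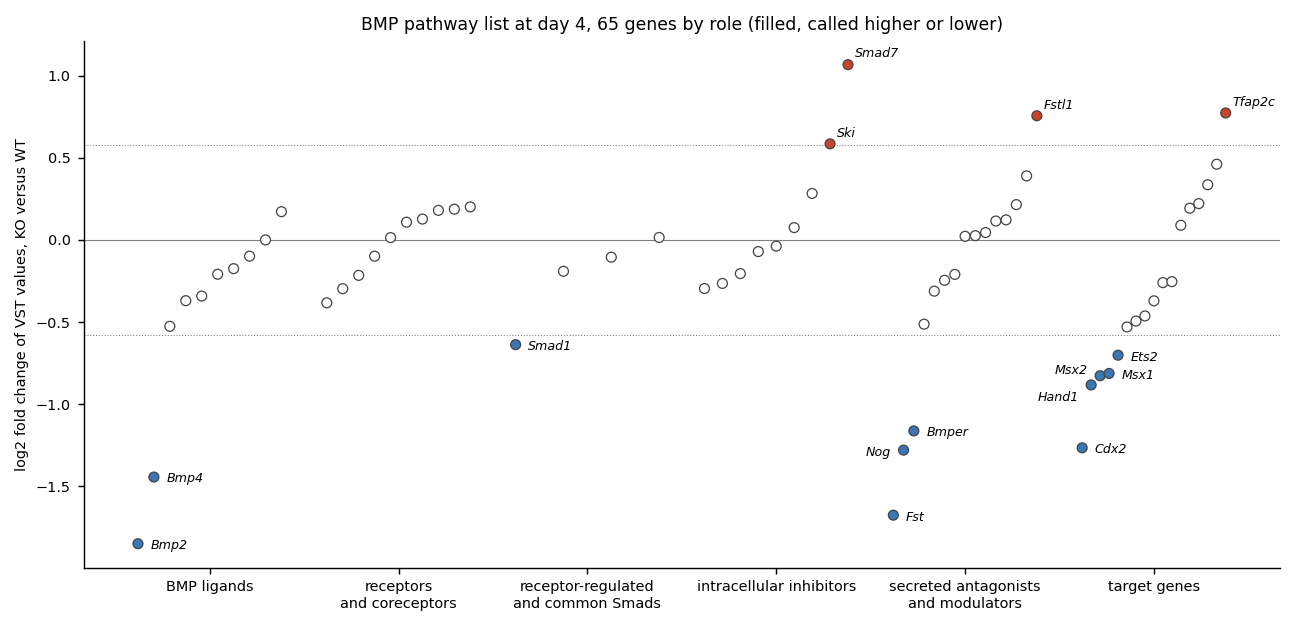
Log2 fold change of the VST values, KO against WT at day 4, for 65 genes of the pathway list, 1 point per gene, arranged by role along the horizontal axis and ordered by value within a role. Filled points are called lower (blue, 11) or higher (red, 4), and dotted lines mark a log2 fold change of 0.58 in either direction.

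Lists of cell type markers show what else differed in the same libraries. The primitive streak and mesoderm list (8 genes) summed to 32948 ± 609 normalized counts in WT and 627.5 ± 279 in KO at day 4 (SD, n = 2 and n = 4), 52.5-fold lower, and 7 of the 8 were called lower. Its most abundant gene at that day, T (Brachyury), had 16055 and 16441 in WT and 60.2 to 226 in KO. Mixl1 had a mean of 6829 in WT and 38.9 in KO, and Eomes 5637 and 415, the highest of these 3 genes in KO, and Msgn1, at 0 in all 6 libraries of day 0, had 1015 and 1171 in WT at day 4 and was at 0 in all 4 KO libraries. The primitive endoderm list was 4.82-fold lower in KO at day 4, led by Col4a1 and with 4 of 8 called lower, the trophoblast list 5.80-fold lower, led by Krt8 and with 4 called lower and 1 higher, and the neuroectoderm list, of which 7 of 8 genes were in the table, 1.82-fold lower, led by Nes and with 1 called lower and 1 higher. These calls are from the VST values, and limma-voom also called Sox17, Dab2 and Lama1 of the primitive endoderm list lower. Of the trophoblast list it also called Gata3 lower and Ascl2 higher, and of the neuroectoderm list Sox3 higher. The neuroectoderm genes did not move together at day 4. Nes had a mean of 5436 in WT and 1764 in KO, Sox1 3.02 and 598, and Pax6 0.95 and 46.9. Sox1 and Pax6, named after their values were seen, were higher in every KO library than in WT. The pluripotency list was 1.30-fold higher, with 6 of 8 called higher and 1 lower. Sox2 had 217 and 253 normalized counts in WT and 4083 to 4546 in KO. Tdgf1, the most abundant in WT, was lower in KO, where its mean (3642) was below that of Sox2 (4293). The fibroblast list was 2.29-fold lower in KO at day 4, with 2 of 10 called lower on the VST scale, and Col1a1 was again its most abundant gene. In this list limma-voom also called Col1a2 and Dcn lower, and Fbln2 higher (log2 fold change 0.75, adjusted p = 0.00161). Several sums rested on their most abundant gene. Without it, KO relative to WT at day 4 was 0.561 for trophoblast (without Krt8), 3.26 for neuroectoderm (without Nes), the other direction from the whole list, and 2.13 for pluripotent cells (without Tdgf1), while the primitive streak and mesoderm list was still 34.2-fold lower without T. The clones lay apart in the day 4 sums of the primitive streak and mesoderm list, with 848 and 888 in KO-1 and 360.5 and 414 in KO-2. The fibroblast list had 1010 and 973 in KO-1 and 1655 and 1622 in KO-2. For neuroectoderm the sums were 3765 and 3858 in KO-1 and 2639 and 2656 in KO-2. The part of the cell makeup in the day 4 values of the BMP genes was not tested.

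At day 2 the sums in KO relative to WT were 0.345 for the primitive streak and mesoderm list, 0.393 for primitive endoderm, 0.671 for trophoblast, 0.335 for neuroectoderm, 0.682 for fibroblasts and 1.22 for pluripotent cells. At day 0 they were 0.477, 0.938, 1.26, 1.23, 1.71 and 0.994 in the same order. The direction turned without the most abundant gene for trophoblast at day 2 (2.50 without Krt8) and day 0 (0.666 without Tfap2c) and for neuroectoderm at day 0 (0.588 without Nes), and the pluripotent list at day 0 went from 0.994 to 1.08 without Tdgf1.

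**Figure D4:**
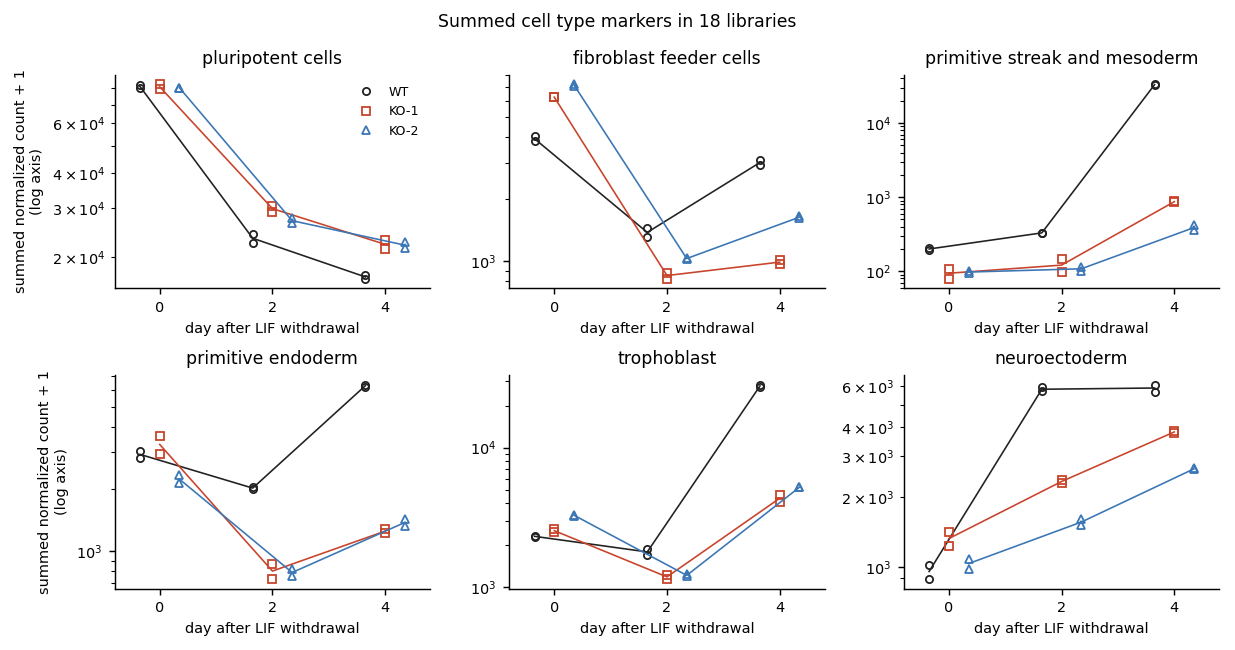
Summed normalized counts plus 1 of 6 lists of cell type markers on a log axis against the day after LIF withdrawal, 1 point per library with a line through the mean of each line of cells. The WT points of the primitive streak and mesoderm list stand 52.5-fold above KO at day 4, and the KO points of the fibroblast list stand above WT at day 0.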

How the data were processed

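RNA was poly(A) selected and sequenced in 18 libraries. The authors trimmed reads with Trim Galore 0.6.7, aligned them to mm39 with STAR 2.7.11a, counted primary, nonduplicated fragments on exons with featureCounts 2.0.6, dropped genes with a low mean count, and deposited DESeq2 1.42.0 variance stabilized values, which are on a log2 scale with library size corrected. From the lowest value (8.359, a count of 0) the transformation was inverted, and 100% of values came out whole within 0.02. Most low counts were even, for a reason not found, so fragments may be fewer than counts.

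Fits used limma 3.58.1 in R 4.3.3 and were tested on simulated data. Both clones were pooled as KO. limma-voom used the authors' size factors. DESeq2 and edgeR were not run here. Figures were drawn with Python 3.11.15 and matplotlib 3.10.9.

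The members and lists were chosen with earlier results of these data known. Named were all 10 genes, DEGs of the pathway list (up to 4 per role and day, largest first), up to 3 markers per list by level, markers at 0, and the 3 most similar genes of 3 members. Replicate libraries are called biological by the labels, and a supplementary legend on the mESC RNA-seq values calls the replicates independent. How separate the cultures were is not stated for each library, so p-values measure the spread between these libraries, which may be technical. Promoter windows and exon lengths come from GRCm38, another build than that of the counts, matched by symbol and by Ensembl identifier. Alternatives were limma-voom, quantile normalization, median centring, a filter on low values (25th percentile), a replicate block, each clone alone, each day alone, no trend, a looser threshold, and each library left out. Marker sums without their most abundant gene were added after seeing the data. No column of the table was left unused, and the other assays of the study were not analysed here.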

Additional observations from a re-analysis of the deposited data

Results flagged for a closer look

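In 3 of 30 groups of 4 KO libraries, a library lay apart from the other 3 by Dixon's criterion, and chance flags about 1 group in 20. For Bmp2 at day 2, a KO-2 library had 4.68 normalized counts and the other 3 had 0 (gap over range 1.00), a value that any count above 0 would give beside 3 libraries at 0, so the chance rate does not apply to it. For Bmp7 at day 0, a KO-1 library had 49.8 against 29.5 to 31.8 (0.886). For Bmpr2 at day 0, the same library, replicate 1 of KO-1, had 1240 against 920.0 to 934 (0.956). It was the shallowest KO library, with 9644240 counts. Without it the log2 fold change of day 0 on the VST scale was −0.45 for Bmp7 (−0.42 with it) and 0.30 for Bmpr2 (0.37 with it), not called either way.

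For 5 genes, KO against WT was not the same at day 4 as at day 0 by the interaction term of limma, by −1.63 for Bmp2, −1.12 for Bmp4, −0.82 for Smad1, −0.94 for Msx1 and −0.74 for Msx2 on the VST scale.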

How the results depend on the processing

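Results were recomputed under up to 27 alternatives each. The 5 calls of day 4 among the 10 genes kept their direction and stayed past the threshold in all of them, with adjusted p values (limma) of at most 3.56e-06 for Bmp2, 3.40e-05 for Bmp4, 8.55e-05 for Smad1, 0.00127 for Msx1 and 0.000233 for Msx2. limma-voom, where low counts are not compressed, called 3 of the 10 genes lower and 1 higher at day 0, 1 and 1 at day 2, 8 changed from day 0 to day 4 in WT (5 in the VST fit) and 5 in KO (3), and 1 with a KO effect that differs between day 2 and day 0. Of the 65 pathway genes it called 10 lower and 6 higher at day 0, 9 and 7 at day 2, and 27 and 12 at day 4. An adjusted p under 0.05 with no limit on the fold gave 4 lower and 4 higher of the 10 at day 0, 4 and 2 at day 2, 8 changed in WT, 9 in KO and 3 with an effect that differs between day 2 and day 0, and of the pathway genes 15 and 17 at day 0, 13 and 15 at day 2, and 30 and 13 at day 4. Of all genes, 14.4% were lower and 15.3% higher at that threshold at day 0, 24.2% and 21.8% at day 2, and 19.2% and 18% at day 4. At day 0 the pathway list had 1 gene lower with KO-1 alone, 2 higher with KO-2 alone, and 1 higher with quantile normalization or median centring. Leaving out each library gave 0 to 1 pathway genes lower and 0 to 1 higher at day 0, 0 to 1 lower at day 2, and 0 to 1 of the 10 with an effect that differs between day 2 and day 0. The last 2 became 1 without the first WT library of day 2. Shares of all genes called are not given here for a clone alone, quantile normalization, median centring or a library left out. The counts under those settings are therefore not a result about the list against all genes.

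Small differences that were not called changed sign. Smad1 at day 2 (−0.02 on the VST scale) was 0.04 with median centring, 0.0067 with KO-1 alone and −0.05 to 0.02 with a library left out, Bmp7 at day 2 (0.08) was −0.0003 to 0.17 with a library left out, lowest without the second WT library, and Msx2 at day 0 (−0.08) was 0.02 with KO-2 alone. The cause was not tested.

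Replicate numbers did not pair the samples: over 36 pairs of same-numbered groups the correlation of deviations ranged from −0.612 to 0.636, with 13 over 0.1. With the replicate number as a block, 5 of the 10 genes were lower at day 4, and no call changed. Depth limits Bmp2 before day 4, where 0 to 30 counts per library were behind its values.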
